A study of Mus musculus with 6 samples.

Results

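The 8 early response genes described here were the nuclear receptor genes *Nr4a1*, *Nr4a2* and *Nr4a3*, the zinc finger genes *Egr1*, *Egr2* and *Egr3*, and the immediate early response genes *Ier2* and *Ier3*. Every probe that carries 1 of these 8 names on the array was taken, which gave 9 probes on 18 spots per array, of 55681 probes and 59305 spots in all. The genes were chosen by their differences between the diets in these hearts, so those differences, and the counts of genes past a threshold, are given below as a description and not as a test. The 6 arrays carried RNA from the hearts of male C57BL/6 mice, 3 fed a high fat diet (HFD) and 3 fed a standard chow (normal diet, ND). Feeding began at 4 weeks of age and lasted 4 months, and 60% of the kcal of the HFD came from fat. No transgene or injection is given for these mice, and both diets share strain, sex, starting age and length of feeding. By the methods of the study its adult mice were littermates, and the sources used here do not say which chambers a heart sample held.

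Early response genes are transcribed within minutes of a stimulus from transcription factors that are already in the cell, such as SRF with its partners at CArG boxes and CREB at cyclic AMP response elements (CRE), and their short-lived mRNA falls again soon after. The NR4A proteins are orphan nuclear receptors whose activity is set mainly by how much of them is made. The EGR proteins bind GC-rich DNA through 3 zinc fingers and are held back by the NAB corepressors. In heart muscle, genes of both families are known to respond to adrenergic stimulation, stretch and ischaemia.

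RefSeq promoter windows on GRCm38.p6 were used for 5 of the 8 genes (*Nr4a1*, *Nr4a2*, *Nr4a3*, *Egr2* and *Ier3*), and the 250 bases before each start were searched on both strands. Below are those 250 bases for the 3 receptor genes, printed because all of them hold the same repeated element, and a 30-base piece of *Egr2*, printed because it holds a CArG box and a CRE core side by side. Capitals mark the core TGACG of the CRE, on whichever strand it lies, and, in *Egr2*, the CArG box. The windows lie at chr15:101266596-101266845 on the plus strand (Nr4a1), chr2:57124004-57124253 on the minus strand (Nr4a2), chr4:48045055-48045304 on the plus strand (Nr4a3) and chr10:67537793-67537822 on the plus strand (Egr2).
Nr4a1: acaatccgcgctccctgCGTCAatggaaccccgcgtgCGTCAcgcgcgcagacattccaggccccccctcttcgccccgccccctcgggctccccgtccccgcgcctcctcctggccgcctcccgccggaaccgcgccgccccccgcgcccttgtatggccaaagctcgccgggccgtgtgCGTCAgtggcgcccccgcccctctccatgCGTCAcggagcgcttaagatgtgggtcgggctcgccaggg
Nr4a2: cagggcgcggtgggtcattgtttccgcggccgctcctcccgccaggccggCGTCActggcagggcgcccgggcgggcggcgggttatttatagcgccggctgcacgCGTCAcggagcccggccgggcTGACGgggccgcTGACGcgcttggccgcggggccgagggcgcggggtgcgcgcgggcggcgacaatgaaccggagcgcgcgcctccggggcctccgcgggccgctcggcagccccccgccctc
Nr4a3: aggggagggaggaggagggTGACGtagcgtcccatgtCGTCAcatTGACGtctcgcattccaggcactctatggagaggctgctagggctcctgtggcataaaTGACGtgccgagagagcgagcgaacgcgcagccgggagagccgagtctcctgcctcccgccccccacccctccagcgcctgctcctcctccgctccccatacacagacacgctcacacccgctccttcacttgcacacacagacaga
Egr2: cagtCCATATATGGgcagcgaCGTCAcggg
The receptor genes each had 4 CRE cores in 250 bases. Of all 32851 promoter windows searched the same way, 17.8% held at least 1 such core and 0.137% held 4 or more. None of the 5 genes held the full element TGACGTCA, which contains the core and was present in 1.55% of windows. *Egr2* has 5 windows from neighbouring starts. The CArG box printed lies in 3 of them, which overlap and so are no separate observations. A different CArG box, CCTTTTTTGG, lies 72 to 63 bases before the start of a further *Egr2* window. A CArG box was present in 1.47% of all windows. The site bound by EGR proteins, GCGNGGGCG, was found once in *Nr4a1* and once in *Nr4a2*, and in 4.70% of all windows. The NR4A monomer site AAAGGTCA was found in none of the 5 genes and in 1.34% of windows. None of the motifs searched was found upstream of *Ier3*. A match of letters is a description of the window and was not set against binding data. The shares over all windows take no account of how GC-rich a window is.

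In the ND-fed hearts, 6 of the 8 genes gave a signal well above background on every array, and the same was true in the HFD-fed hearts. *Nr4a3* and *Egr3* were at the limit of detection. Across all arrays, 49.2% to 52.9% of probes were well above background, saturation affected 0 spots, and the 75th percentile of intensity was 453 to 544. The levels given below are log2 intensities minus the log2 of that percentile on the same array, so a level of 0 is the 75th percentile. The arrays shared 1 slide, where row 1 carried HFD 1 and HFD 2, and row 2 carried HFD 3 and all ND-fed hearts. Heart muscle was present in every sample, since the 6 cardiomyocyte genes of a fixed list (*Myh6*, *Tnnt2*, *Actc1*, *Myl2*, *Ryr2*, *Pln*) summed to 2556 to 2604 times the percentile in ND-fed and 2272 to 2782 times in HFD-fed hearts. Whole tissue was measured, so a change in the number of cells that make a transcript and a change of transcript per cell cannot be told apart.

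Among the receptor genes, *Nr4a1* had a larger difference of means between the diets than *Nr4a2*. Its probe (A_51_P239654, NM_010444, mm9 chr15:101105071-101105130, plus strand) had intensities of 5717, 8505 and 3131 in the ND-fed hearts (replicates 1, 2 and 3), and of 33466, 31395 and 14798 in the HFD-fed hearts. Every HFD-fed heart was above every ND-fed heart, and HFD 3 was much closer to the ND-fed hearts than the other two were. The level was 3.47 ± 0.72 (SD, n = 3) in ND and 5.63 ± 0.75 in HFD. The log2 difference was 2.17 (SE 0.49), a 4.49-fold difference of the geometric means. After scaling, the lowest HFD-fed heart (HFD 3) was 1.55-fold above the highest ND-fed heart (ND 2), while the ND-fed hearts spanned 2.68-fold and the HFD-fed hearts 2.54-fold among themselves.

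**Figure D1:**
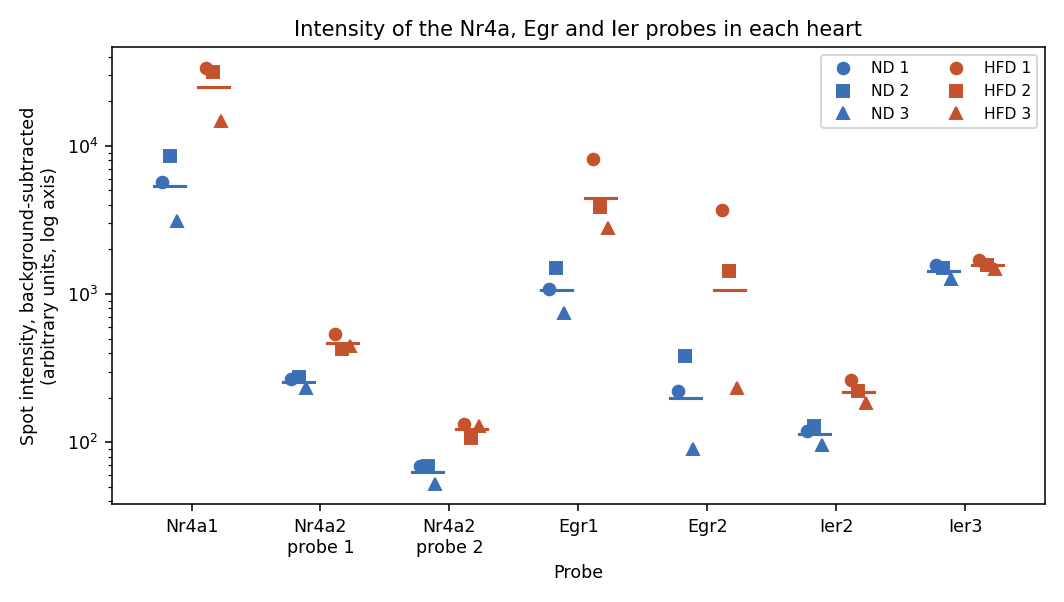
Background-subtracted spot intensity (log axis) of the 7 probes well above background, with 1 point per heart (blue ND, red HFD, symbol by replicate) and a bar at the geometric mean of each diet. The diets are separated for *Nr4a1*, both *Nr4a2* probes, *Egr1* and *Ier2*, while *Egr2* runs from 90.5 to 383 in ND and from 231 to 3703 in HFD, and *Ier3* stays between 1264 and 1688.

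*Nr4a2* encodes a receptor best known from dopamine neurons, and it was read by 2 probes of 1 transcript (NM_013613). The first (A_52_P494622, mm9 chr2:56960699-56960758, minus strand) had intensities of 267, 274 and 230 in the ND-fed hearts and of 535, 427 and 448 in the HFD-fed hearts. The second (A_55_P1983508, mm9 chr2:56959637-56959696, minus strand) had 68.6, 68.9 and 52.6 in ND and 133, 107 and 128 in HFD. Both probes separated the diets without overlap, and both were lowest in ND 3 among the ND-fed hearts. The first had a level of −0.91 ± 0.12 (SD, n = 3) with ND and −0.10 ± 0.17 with HFD, a log2 difference of 0.81 (SE 0.11), and the second differed by 0.90 (SE 0.12). These are 1.75-fold and 1.86-fold differences, smaller than that of *Nr4a1* but with a much narrower spread, since the first probe spanned 1.17-fold among the ND-fed and 1.26-fold among the HFD-fed hearts. The probes differed in HFD 3, which stood 0.64 above the ND mean by the first probe and 0.85 by the second on the log2 scale.

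*Nr4a3*, the remaining receptor gene, was read by 10 spots of 1 probe (A_51_P128397, NM_015743). Its mm9 interval, chr4:48080690-48083876 on the plus strand, is 3187 bases long for a probe of 60, so the probe crosses a splice junction. The median spot intensity was 6.41, 4.33 and 4.71 in the ND-fed hearts, and 9.08, 21.2 and 8.74 in the HFD-fed hearts. In HFD 2, 7 of the 10 spots were well above background, with spots between 11.2 and 26.7, and in the other 5 hearts 0 of 10 were. The lowest signal that passed as well above background was between 14.4 and 21.1 on the 6 arrays, so the order of the dim hearts carries no weight and no fold is given.

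The zinc finger gene *Egr1* encodes the best studied factor of its family. Its probe (A_51_P367866, NM_007913) had intensities of 1079, 1489 and 739 in ND and of 8174, 3873 and 2809 in HFD. The diets did not overlap, and HFD 1 was far above the other two HFD-fed hearts. The level was 1.13 ± 0.50 (SD, n = 3) with ND and 3.15 ± 0.81 with HFD, a log2 difference of 2.02 (SE 0.45) or 4.05-fold. After scaling, the lowest HFD-fed heart was 1.68-fold above the highest ND-fed heart.

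*Egr2* encodes a factor known from myelinating Schwann cells and from lymphocytes as well as from early responses. Its probe (A_55_P2033362, NM_010118, mm9 chr10:67004798-67004857, plus strand) had intensities of 222, 383 and 90.5 in ND and of 3703, 1423 and 231 in HFD. HFD 1 and HFD 2 were above all ND-fed hearts, but HFD 3 lay between ND 1 and ND 2 in intensity and between ND 3 and ND 1 after scaling, so the diets overlapped. The log2 difference of 2.38 (SE 1.10) had an error larger than that of any other of the 6 genes fitted, from a level of −1.29 ± 1.04 (SD, n = 3) in ND to 1.09 ± 2.10 in HFD. The HFD-fed hearts alone spanned 16.9-fold after scaling, and the log2 difference was 1.496 without HFD 1, 3.54 without HFD 3 and 0.05 with the slide row as a term. Relative to the ND mean, HFD 1 was 17.6-fold, HFD 2 7.67-fold and HFD 3 1.04-fold as high.

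*Egr3*, a related factor known from muscle spindles and lymphocytes, was read by 1 spot (A_55_P2032412, NM_018781, mm9 chr14:70479222-70479281, plus strand). The spot had intensities of 4.68, 8.20 and 13.1 in ND and of 32.2, 6.34 and 4.95 in HFD. It was well above background in HFD 1 and in none of the other 5 hearts, and HFD 2 and HFD 3 were below the highest ND-fed heart.

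**Figure D2:**
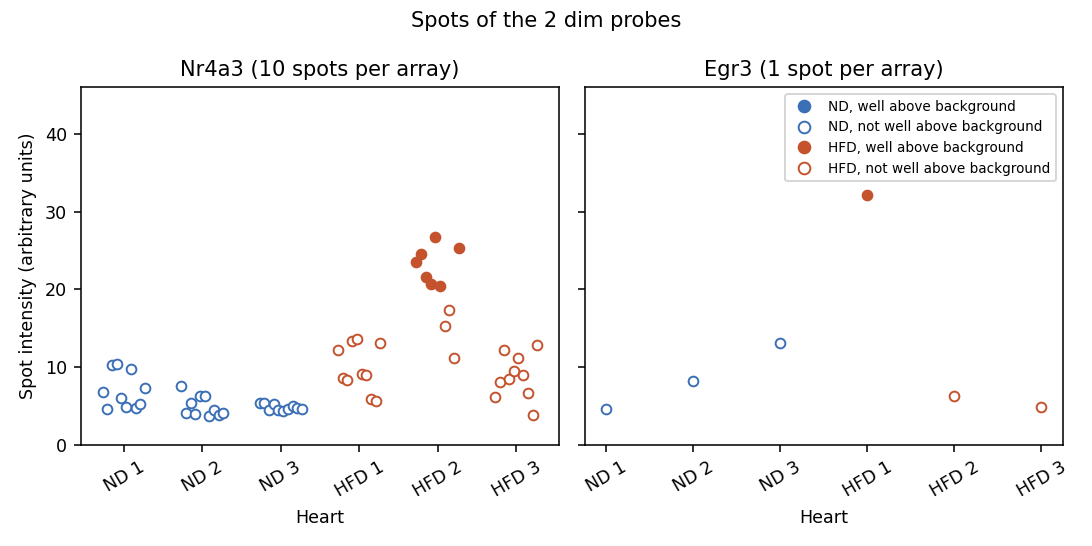
Intensity of each spot of *Nr4a3* (10 spots per array) and *Egr3* (1 spot per array) in each heart, filled where the software called the spot well above background. Filled points are found in HFD 2 for *Nr4a3* (7 of 10) and in HFD 1 for *Egr3*, and in no ND-fed heart.

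The pair of *Ier* genes, which share a name but no sequence family, behaved differently from each other. *Ier2* encodes a small nuclear protein, and its probe (A_55_P2163028, NM_010499, mm9 chr8:87186214-87186273, minus strand) had intensities of 118, 129 and 95.9 in ND and of 262, 221 and 183 in HFD. Every HFD-fed heart was above every ND-fed heart, with HFD 3 the lowest of its diet. The level was −2.09 ± 0.21 (SD, n = 3) with ND and −1.19 ± 0.33 with HFD, a log2 difference of 0.89 (SE 0.19) or 1.86-fold. With another background correction (normexp) the log2 difference of this dim probe was 0.60.

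*Ier3*, whose product is known for regulating cell survival and ERK signalling, hardly differed. Its probe (A_51_P286488, NM_133662, mm9 chr17:35959528-35959587, plus strand) had intensities of 1563, 1507 and 1264 in ND and of 1688, 1577 and 1484 in HFD. The diets overlapped, and after scaling HFD 3 was the second lowest of the 6 hearts. The level was 1.57 ± 0.15 (SD, n = 3) with ND and 1.65 ± 0.18 with HFD, a log2 difference of 0.08 (SE 0.13), and the sign turned to −0.0064 without ND 3.

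Over the 6 genes above background, with the brighter probe of *Nr4a2*, the median log2 difference was 1.46, against −0.0081 over all 27587 probes tested. Of the 6, 4 genes (*Nr4a1*, *Nr4a2*, *Egr1* and *Ier2*) were higher in HFD at an unadjusted limma p below 0.05, where 5.23% of all probes were. With the slide row as a term, *Nr4a1* and *Egr1* no longer met that limit, and *Nr4a2* and *Ier2* did. The same 4 genes did not overlap between the diets with HFD higher, as was so for 7.92% of all probes. None passed after Benjamini-Hochberg adjustment, which 0.0145% of all probes passed with HFD higher. These counts restate the contrast by which the genes were chosen.

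**Figure D3:**
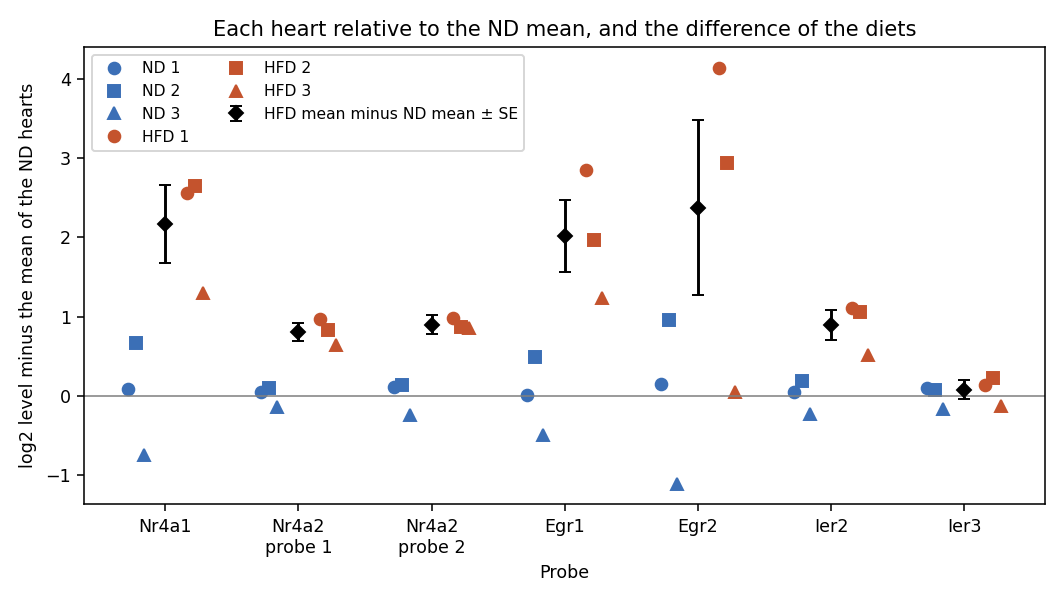
Log2 level of each heart minus the mean of the ND-fed hearts for the 7 probes, with the difference of the diet means and its SE from the fit (black). HFD 3 is the lowest HFD-fed heart for every probe, between −0.13 for *Ier3* and 1.30 for *Nr4a1*.

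The genes also varied in a shared way within each diet. After scaling, in the ND-fed hearts *Nr4a1*, *Nr4a2*, *Egr1*, *Egr2* and *Ier2* all ran ND 2, ND 1, ND 3 from high to low, an order that 21.9% of all probes had, and *Ier3* ran ND 1, ND 2, ND 3 (23.6% of probes). In the HFD-fed hearts, *Nr4a2*, *Egr1*, *Egr2* and *Ier2* ran HFD 1, HFD 2, HFD 3 (12.1% of probes), and *Nr4a1* and *Ier3* ran HFD 2, HFD 1, HFD 3 (19.0%). ND 3 and HFD 3 were thus the lowest of their diet for all 6 genes. The orders that end in ND 3 were the most frequent in ND over all probes (23.6% and 21.9%). Those that end in HFD 3 were held by 12.1% and 19.0% of all probes. The probes share their array and its scaling, and these shares are given as a description.

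The row on the slide set HFD 3, the lowest of its diet for these genes, apart from the other HFD-fed hearts. It was the same for all ND-fed hearts. HFD 3, the only HFD-fed heart on the row that held all ND-fed hearts, stood above their mean by 1.30 for *Nr4a1*, 1.24 for *Egr1*, 0.64 for *Nr4a2*, 0.52 for *Ier2* and 0.05 for *Egr2* on the log2 scale, and at −0.13 for *Ier3*. The median of the 6 genes within that row was 0.58, against 1.46 over all hearts. *Nr4a1*, *Egr1*, *Nr4a2* and *Ier2* of HFD 3 were above the highest ND-fed heart, and *Egr2* and *Ier3* were not. With row 1 holding HFD-fed hearts alone, the row and the difference between HFD 3 and the other HFD-fed hearts cannot be told apart.

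Several marker genes of other cells or of stress differed between the diets or stood apart in single hearts. All 4 erythroid genes were lower in HFD without overlap, as were 11.1% of all probes, their summed level being 576 to 735 times the percentile in ND and 367 to 514 times in HFD. *Ahsp* (−1.35, SE 0.39), *Alas2* (−0.64, SE 0.21) and *Hbb-b1* (−0.55, SE 0.17) were lower at an unadjusted p below 0.05. So were 6.64% of all probes, and none of these genes passed the limma adjustment. The 3 smooth muscle genes summed to 62.2 to 82.6 in ND and 66.9 to 192 in HFD, with the highest value in HFD 1. The 4 atrial genes ranged from 198 to 981 in ND and from 56.2 to 1149 in HFD, with HFD 1 the highest and HFD 2 the lowest of all hearts. The 5 endothelial genes summed to 36.7 to 40.2 in ND and 34.1 to 39.4 in HFD, the 5 fibroblast genes to 290 to 349 and 266 to 342, and the 5 macrophage genes to 30.3 to 34.2 and 25.2 to 30.6. Such sums mostly follow their brightest genes. At an unadjusted p below 0.05, *Kdr* (−0.26, SE 0.08), *Pdgfra* (−0.30, SE 0.10) and the dim *Cd163* (−1.10, SE 0.43) were lower in HFD, as were 6.64% of all probes. No endothelial, fibroblast or macrophage gene was higher at that limit, and none passed the limma adjustment. The 3 adipocyte genes summed to 2.55 to 5.75 in ND and 0.243 to 5.69 in HFD, and the 2 neutrophil genes tested of 3 to 1.32 to 6.55 and 0.791 to 3.78, with ND 3 and HFD 3 the lowest of their diet, as for the early response genes. Of the 4 skeletal muscle genes only *Tnnt3* was bright enough to be tested, at 0.0840 to 0.174 in ND and 0.0883 to 0.119 in HFD. The 4 heat shock genes tested of 5 on the list summed to 285 to 352 in ND and 267 to 393 in HFD. *Dnajb1* among them differed by 0.77 (SE 0.21, limma adjusted p = 0.274). ND 3 and HFD 3 were again the lowest of their diet for this sum. They were also the lowest for *Tnnt3* and for the sums of all gene lists described below except the kinases. For the other marker sums they were not both the lowest. The part of any of these marker genes in the levels of the early response genes was not tested.

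Other primary response genes, which share the fast induction, were taken from a list of 38. Of the 37 tested, 31 were higher and 6 lower in HFD, with a median log2 difference of 0.27. At an unadjusted p below 0.05, 10 were higher (5.23% of all probes) and 1 was lower (6.64% of all probes), and none passed the limma adjustment (smallest adjusted p = 0.130), although *Klf2* passed with an intensity trend and robust variances. The 4 largest of these 10 were *Sik1*, a kinase that restrains CREB signalling, at 0.98 (SE 0.37), *Klf2*, an endothelial factor that responds to flow, at 0.83 (SE 0.13), the antiproliferative gene *Btg2* at 0.62 (SE 0.25) and the NF-κB modulator *Nfkbiz* at 0.60 (SE 0.23). *Klf2* had levels of 3.70, 3.74 and 3.51 in ND and 4.46, 4.69 and 4.29 in HFD, without overlap. The gene on the lower side was the polo-like kinase gene *Plk2* at −0.63 (SE 0.19), which is also induced early in many cells. The count of 10 was 2 with the slide row as a term and 15 without HFD 3. It was 8 without ND 1, 5 without ND 2 and 4 without ND 3, HFD 1 or HFD 2, so it depends on which hearts are used.

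The *Fos*, *Jun* and *Atf3* genes, which form the AP-1 factors, were tested for 7 of 8 genes, and all 7 were higher in HFD (median 0.95). At an unadjusted p below 0.05 the higher genes were *Fos* (2.09, SE 0.30), *Atf3* (1.43, SE 0.27), *Fosl2* (0.96, SE 0.35) and *Junb* (0.91, SE 0.32). Of all probes, 5.23% were higher at that limit, and the smallest limma adjusted p of the list was 0.121. *Fos* had levels from −2.51 (ND 3) to −1.68 (ND 2) in ND and of −0.21, 0.55 and −0.26 in HFD. HFD 2 was thus the highest heart, and HFD 1 and HFD 3 were close, with HFD 1 the higher. From high to low, *Fos* ran in the order of *Nr4a1* in both diets. It shared the order of *Egr1* and *Egr2* in the ND-fed hearts but not in the HFD-fed hearts.

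**Figure D4:**
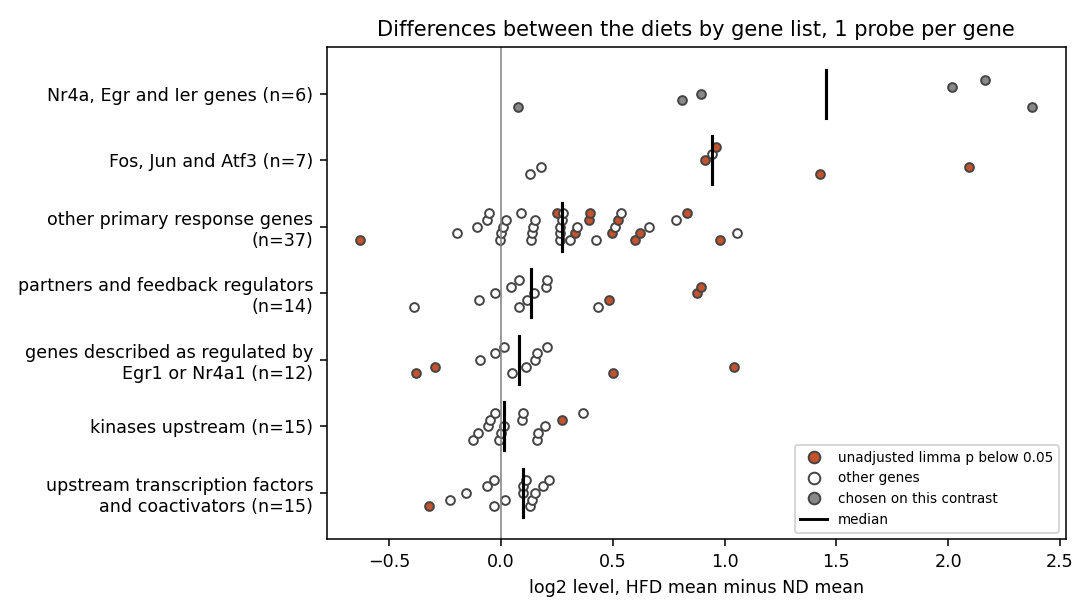
Log2 difference of the diets (HFD mean minus ND mean) for each gene of 7 lists, 1 probe per gene, with a bar at the median of each list and red points at an unadjusted limma p below 0.05. The 6 genes described here (grey) have the median of 1.46, and the lists of upstream factors and kinases lie around 0.

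The transcription factors and coactivators that act on early response genes (*Srf*, the *Elk* genes, the *Crtc* and *Mef2* genes and others) and the kinases above them showed much smaller differences. Of 15 factors, 9 were higher and 6 lower in HFD with a median of 0.10. At an unadjusted p below 0.05, 1 gene, *Mef2a*, was lower (−0.32, SE 0.07, limma adjusted p = 0.231), as were 6.64% of all probes. Of 15 kinases, 9 were higher and 6 lower with a median of 0.01. By the same limit 1 gene, *Mapk14*, which encodes p38α, was higher (0.27, SE 0.07, limma adjusted p = 0.259), as were 5.23% of all probes. A count of 1 in 15 is near these shares. These arrays measure transcripts and not the phosphorylation by which such proteins are switched on.

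Partners and feedback regulators were tested for 14 of 15 genes, with 11 higher, 3 lower and a median of 0.13. At an unadjusted p below 0.05, 3 were higher, as were 5.23% of all probes. *Dusp2*, a phosphatase that inactivates MAP kinases, differed by 0.89 (SE 0.11, limma adjusted p = 0.0887), with levels of −1.81, −1.93 and −2.15 in ND and −1.01, −1.16 and −1.04 in HFD. The HFD-fed hearts lay close together for this gene, HFD 3 included. *Nab2*, the corepressor gene that EGR proteins induce and that holds them back, differed by 0.88 (SE 0.34), with levels of 1.02, 1.37 and 1.16 in ND and 2.45, 2.46 and 1.26 in HFD. HFD 3 was thus within the ND range for *Nab2*, as it was for *Egr2*. *Dusp1*, another MAP kinase phosphatase gene, differed by 0.48 (SE 0.12).

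Genes described as regulated by EGR1 or NR4A1 in other settings were 12, all tested, of which 8 were higher and 4 lower in HFD with a median of 0.08. At an unadjusted p below 0.05, 2 were higher (5.23% of all probes) and 2 lower (6.64% of all probes). *Fbp2*, the muscle fructose bisphosphatase gene that is known to follow NR4A1 in skeletal muscle, differed by 1.04 (SE 0.11, limma adjusted p = 0.0848), with levels of 1.44, 1.29 and 1.33 in ND and 2.18, 2.51 and 2.48 in HFD. It did not show the order of *Nr4a1*, since HFD 3 was level with HFD 2. The other genes of the list described for NR4A1 in muscle went both ways. *Ucp3*, a mitochondrial carrier gene, differed by 0.50 (SE 0.18). *Slc2a4*, the insulin-responsive glucose transporter gene, was lower by the same test, with −0.38 (SE 0.06, limma adjusted p = 0.145). So was *Pgam2*, a glycolytic enzyme gene, with −0.29 (SE 0.11). *Pygm* was at −0.09 (SE 0.07) and did not meet that limit.

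The genes most like *Nr4a1* over the 6 hearts were sought among 12494 named genes well above background on all arrays. The highest Pearson's r with its probe belonged to *Enc1* (0.994), *E2f3* (0.994), *Fgd1* (0.992), *Pvrl1* (0.992) and *Auts2* (0.990). Their log2 differences between the diets were 0.64, 0.30, 0.23, 0.36 and 0.34, all smaller than that of *Nr4a1*, and none passed the limma adjustment (adjusted p of 0.219 to 0.392). *Enc1* had levels of 1.73, 1.86 and 1.56 in ND, the order of *Nr4a1*. For the mean of the 6 genes the closest were *Klf16* (r = 0.997), *Rab8b* (0.994), *E2f3* (0.990), *Uba6* (0.989) and *Klhl4* (0.988). These r values describe 6 points that already fall apart by diet and share their arrays, and they are the highest of a search over many genes.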

How the data were processed

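RNA from 3 ND- and 3 HFD-fed hearts was read on 6 Agilent arrays in 1 colour (Cy3). The authors deposited linear intensities from Agilent Feature Extraction 10.7.1.1 (10.7 in the submitters' processing notes), background-subtracted within each array and with no scaling across arrays. Spot and local background intensities, also deposited, served only the normexp alternative (offset 50). Beside these, the authors deposited log2 values in a matrix. Set against the scanner files, each of its columns ranked its own array's probes the same way (Spearman's rho of 1, at most 0.954 with another array), had a median of 4.56 to 2 decimals, and followed a quantile normalization, so it was used as an alternative. How it was centred is not given in the sources used here.

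Control spots and 127 to 190 outlier spots per array were left out, spots of a probe were averaged on the log2 scale, and the log2 of the array's 75th percentile over spots was subtracted. Probes well above background on all 3 arrays of at least 1 diet, and measured on 2 or more arrays of each, were tested with limma 3.58.1 (lmFit, eBayes, two-sided) in R 4.3.3 with jsonlite 2.0.0, statmod 1.5.0 and data.table (version 1.17.8), with Benjamini-Hochberg adjustment over 27587 probes. Figures used Python 3.11.15 and matplotlib 3.10.9. The code was tested on simulated data. In lists, the brightest tested probe stands for a gene. Named are all probes of the 8 genes and, per list, up to 4 genes per direction at an unadjusted p below 0.05, and the 5 genes most alike. *Tnnt3*, *Pygm* and the cardiomyocyte genes are named beside that rule. The genes, the lists and the alternatives were chosen with earlier results of these data known.

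Within a diet, arrays correlated at 0.991 to 0.996 over probes and none held the same values, so each heart was 1 replicate, and p-values measure the spread between these hearts. Hearts with the same replicate number did not deviate together (r of −0.15, 0.15 and 0.19), so they were not treated as pairs. The alternatives were quantile normalization, normexp, no filter on dim probes, the authors' log2 matrix, an intensity trend with robust variances, the methods' t-test, probes above background on every array, the replicate number as a block, outlier spots kept, the slide row as a term, each heart left out, and the average of a gene's probes. Promoter sequences come from RefSeq (GRCm38.p6), and the array's positions are on mm9. The place of each probe in exons or UTRs was not analysed here.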

Additional observations from a re-analysis of the deposited data

Results flagged for a closer look

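A pair of genes that entered no comparison, because their probes were too dim, gave a signal in 1 HFD-fed heart each. The *Egr3* spot was well above background in HFD 1 (1 of 1 spot, intensity 32.2) and in 0 of the other 5 hearts, where it was between 4.68 and 13.1. *Nr4a3* was well above background in HFD 2 with 7 of 10 spots (median intensity 21.2), and in the other 5 hearts 0 of 10 spots were, with medians between 4.33 and 9.08. Each rests on a single heart, and the hearts are not the same one.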

How the results depend on the processing

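Of the 15 alternatives, 14 moved the log2 difference of *Nr4a1* and the median of the genes by less than the spread between replicates. The exception was the slide row as a term, which gave 1.30 for *Nr4a1*, 0.58 for the median, 1.24 for *Egr1*, 0.05 for *Egr2*, 0.52 for *Ier2*, 0.64 for *Nr4a2* and, with the sign turned, −0.13 for *Ier3*. With no filter on dim probes the median was taken over 8 genes, *Nr4a3* and *Egr3* included, and was 0.98. With the slide row as a term, HFD 3 is the only heart set against the ND-fed hearts. Without ND 3, *Ier3* turned to −0.0064, leaving out single hearts gave −0.0064 to 0.18 for it, and with normexp *Ier2* was at 0.60. Leaving out each heart gave 1.79 to 2.60 for *Nr4a1*, 1.496 to 3.54 for *Egr2* and 1.14 to 1.74 for the median.

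The number of the 6 genes higher at an unadjusted p below 0.05 was 4 (*Nr4a1*, *Nr4a2*, *Egr1* and *Ier2*) in every alternative but 3. It was 2 (*Nr4a2* and *Ier2*) with the slide row as a term, and 5, with *Egr2* added, without HFD 3 and with the replicate number as a block. That block gave 11 other primary response genes and 1396 probes in all, and it left the differences of the 6 genes and their median as they were. After adjustment, *Nr4a2* and, among the other primary response genes, *Klf2* passed with the intensity trend and robust variances, and in the other alternatives none of these genes did.

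The other primary response genes, 10 in the main setting, fell to 5 when dim probes were kept, to 3 by the methods' t-test and to 2 with the slide row as a term, and ranged from 4 to 15 when a heart was left out. All probes higher at that limit fell from 1444 to 842 with the slide row as a term and ranged from 1028 to 1661 when a heart was left out. The cause was not tested. The number of probes past the adjustment was 4 in the main setting, 40 with normexp and 81 with the intensity trend and robust variances. Signal limits *Nr4a3* and *Egr3*, and 3 hearts per diet limit every mean.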
